A study of Mus musculus with 2 samples.

Results

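The embryonic white blood cells described here were 91 of 19446 kept cells from dissociated mouse somites, 85 of 9595 from embryonic day E11.5 and 6 of 9851 from E9.5. They were chosen by their measured UMIs. A member held at least 4 UMIs (unique molecular identifiers, each counting 1 captured RNA molecule) summed over Tyrobp, Fcer1g, Coro1a and Ptprc, from at least 2 of these genes, and no UMI of Cdh5 or Meox1. The first 4 genes encode the ITAM adaptors of immune receptors (Tyrobp, Fcer1g), an actin regulator of blood cells (Coro1a) and the pan-leukocyte phosphatase CD45 (Ptprc). Cdh5 marks endothelium and Meox1 marks somites, and a UMI of either kept a cell out. The levels of these 6 genes are therefore a description. A cell was kept with 200 or more and under 6500 detected genes and under 15% mitochondrial UMIs.

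Each stage was 1 10x Genomics library of trypsin-dissociated inter-limb somites, pooled from 3 wild type C57BL/6 embryos. No agent, transgene or sort was applied, and both groups shared the strain and the genotype. The dissection was aimed at muscle progenitors, so blood cells were bystanders of the tissue, and cells inside vessels, resident cells and blood carried over at dissection cannot be told apart. With 1 library per stage there was no test between stages, and every interval given covers counting error only (95%, exact Poisson for levels, Clopper-Pearson for shares). The E11.5 library held 136655763 UMIs and the E9.5 library 149368952, with medians of 12479 and 12462 UMIs per kept cell. The libraries shared 30 barcodes, none of them of a member.

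White blood cells of the early embryo come from several sources. The yolk sac gives the first macrophages and megakaryocytes, and later waves add granulocytes, mast cells and monocytes. Macrophages clear dying cells and mature into tissue-resident populations such as microglia, while megakaryocytes store platelet proteins and shed platelets.

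The share of members, white blood cells by the rule, among kept cells was 0.886% in the E11.5 library (interval 0.708 to 1.09%), against 0.0609% in the earlier one (0.0224 to 0.133%). The difference was 0.825 percentage points (Newcombe interval 0.642 to 1.04). The stages also differed in which of the 4 genes chose the cells. At E9.5 the members held 46 Fcer1g and 23 Coro1a UMIs and not 1 UMI of Tyrobp or Ptprc. At E11.5 they held 1700 Tyrobp, 2135 Fcer1g, 1171 Coro1a and 250 Ptprc UMIs, and 85 of 85 had Fcer1g. The label of white blood cells therefore rested on 2 of 4 genes at E9.5, and the pan-leukocyte gene Ptprc was found in 59 of the 85 cells at E11.5. One E9.5 member held a sum of exactly 4, against 4 members with 4 and 3 with 5 at E11.5. Just outside, 4 cells at E11.5 and 0 at E9.5 held a sum of 3 from at least 2 of the genes, and 9 and 0 held 4 or more UMIs of 1 gene alone, with no Cdh5 or Meox1.

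Clustering without the 4 genes, and without cell cycle, globin, sex-linked and mitochondrial genes, divided the members into 5 groups. A macrophage-like group held 48 cells, all of E11.5 (56.5% of the E11.5 members, interval 45.3 to 67.2%). This share depended on how cells were chosen and classed, as it was 92.9% with each cell classed by its own marker UMIs, which also took in 11 of the 12 cells led by Mpo, Cpa3 and S100a9 (the cell with most S100a8 among them), 10 mixed and 10 shallow cells. It was 97.4% with a sum of at least 6 (76 of 78 cells) and 97.1% with at least 1000 genes per cell (68 of 70). The other 2 cells in each were megakaryocyte-like, so members of the other groups counted as macrophage-like there. A megakaryocyte-like group held 9 cells, which were all 6 members of E9.5 and 3 of E11.5. A group led by Mpo, Cpa3 and S100a9 held 12 cells of E11.5. Its granulocyte markers summed to 11148 UMIs per 1000000 UMIs, but 1 cell held 2674 of their 2980 UMIs. Names came only from the macrophage or the megakaryocyte and platelet markers, above 5000 UMIs per 1000000. These summed to 2955 and 273 here, so the group took no cell type name. Of the other two, 11 shallow cells had a median of 2038 UMIs, and 11 were a mixed group, whose leading genes were neuronal but came from few cells, as Stmn2 was found in 2 of the 11. The values of both marker lists, which named the groups and were among the genes clustered, are a description. Macrophage-like cells held 8 to 379 UMIs (median 183) of 16 macrophage markers and 0 to 9 UMIs of 20 megakaryocyte and platelet markers. Megakaryocyte-like cells held 0 to 9 of the first and 33 to 768 of the second, with no overlap on the megakaryocyte list and a shared range of 8 to 9 UMIs on the macrophage list.

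**Figure D1:**
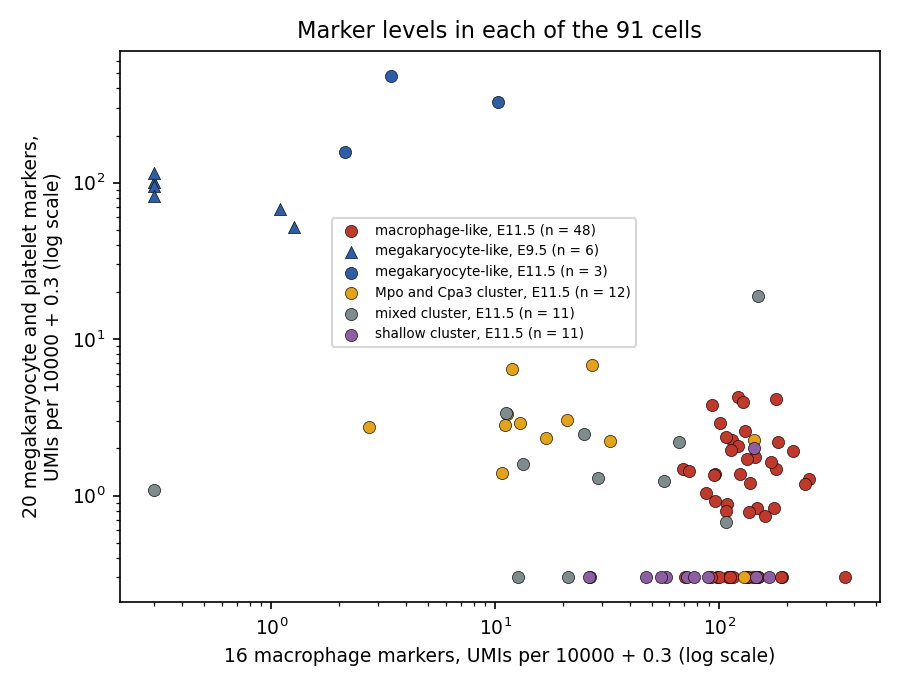
Each point is 1 of the 91 members, by its UMIs per 10000 UMIs of the 16 macrophage markers (x axis, log scale) and of the 20 megakaryocyte and platelet markers (y axis, log scale), each plus 0.3. The 9 megakaryocyte-like cells, 6 triangles of E9.5 and 3 circles of E11.5, sit at the upper left, and the 48 macrophage-like cells at the lower right.

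Promoters of 3 genes whose pooled levels differed between these programs are shown first. Their letters are from RefSeq (build GRCm38.p6), 250 bases before to 50 bases after the start site, in lower case. Pf4 encodes platelet factor 4 and was found in both programs, Gp9 encodes a subunit of the platelet receptor for von Willebrand factor, and C1qb encodes a chain of complement C1q. Capitals mark GAGGAA, the core read by PU.1 (the product of Spi1), AGATAA, read by GATA factors, and TGTGGT, read by Runx factors, on either strand, so that TTCCTC and ACCACA are the same motifs on the other strand.
Pf4 (chr5:90772185-90772484, plus strand): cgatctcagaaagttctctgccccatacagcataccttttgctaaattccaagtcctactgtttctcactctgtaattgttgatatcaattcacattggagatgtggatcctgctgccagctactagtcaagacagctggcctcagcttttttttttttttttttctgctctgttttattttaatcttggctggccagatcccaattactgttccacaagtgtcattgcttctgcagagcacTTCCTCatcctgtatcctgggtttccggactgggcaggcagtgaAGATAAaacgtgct
Gp9 (chr6:87777820-87778119, plus strand): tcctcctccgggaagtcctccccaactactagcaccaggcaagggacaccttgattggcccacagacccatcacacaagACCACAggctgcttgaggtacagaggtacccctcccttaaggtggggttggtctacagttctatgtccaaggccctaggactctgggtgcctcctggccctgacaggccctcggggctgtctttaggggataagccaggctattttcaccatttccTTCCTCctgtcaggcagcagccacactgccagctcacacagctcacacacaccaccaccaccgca
C1qb (chr4:136886151-136886450, minus strand): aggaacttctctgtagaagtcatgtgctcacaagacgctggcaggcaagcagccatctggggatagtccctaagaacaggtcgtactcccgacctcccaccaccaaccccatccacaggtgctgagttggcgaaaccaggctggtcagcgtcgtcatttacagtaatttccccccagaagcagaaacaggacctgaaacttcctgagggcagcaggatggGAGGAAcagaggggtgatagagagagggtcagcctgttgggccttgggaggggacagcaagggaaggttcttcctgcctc
Each of the 3 windows held 1 GAGGAA, Pf4 also held 1 AGATAA and Gp9 1 TGTGGT. Of 27025 promoters, 28.3% held GAGGAA, 11.4% AGATAA and 16.9% TGTGGT. Among macrophage markers 11 of 16 had a promoter in the table, of which 8 held GAGGAA, 0 AGATAA and 3 TGTGGT. Among megakaryocyte and platelet markers 15 of 20 had one, of which 9 held GAGGAA, 4 AGATAA and 1 TGTGGT. A match is a description of letters and not a binding site.

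The macrophage-like cells were compared with the 9510 kept E11.5 cells outside the members, which held 111 Tyrobp UMIs in 25 cells. These are called the other E11.5 cells, and the 37 other E11.5 members were left out of them. A gene was compared when it had 10 UMIs or more, observed or expected, and counted past 2-fold. Of 8233 genes compared, 17.6% were 2-fold or more higher and 27.8% 2-fold or more lower, with a median log2 ratio of all genes of -0.33. A gene nearly absent from the other cells could be compared only if it was high in the group, so list counts are given over the genes that would have reached 10 UMIs at the level of the other cells. Of all 7060 such genes, 7.14% were 2-fold or more higher and 32.4% lower. The macrophage markers, which named the group, had 1 such gene of 16 and the complement and Fc receptors 0 of 12, so these lists are described by the values of their genes.

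The C1q genes lie together on chromosome 4 (C1qb at chr4:136880129-136886187, mm10, by GENCODE M21), and their products open the classical complement pathway. C1qb had 2025 UMIs in 48 of 48 cells, a level of 3000 UMIs per 1000000 UMIs (UPM, interval 2871 to 3133), against 0.965 UPM in other E11.5 cells, a log2 ratio of 11.60 (11.34 to 11.88). C1qa had 1111 UMIs in 47 cells and C1qc 1512 UMIs in 47 cells. Among the 41 macrophage-like cells of 5000 UMIs or more, C1qb ranged from 14.5 to 60 UMIs per 10000 with a median of 28.7. Endothelial cells were chosen by a Cdh5 UMI and at least 4 UMIs from at least 2 of Cdh5, Kdr, Tie1 and Pecam1. Red blood cells had at least 20% globin UMIs. Both classes also had under 4 UMIs summed over Tyrobp, Fcer1g, Coro1a and Ptprc, so their lack of C1qb is a description. None of the 63 cells classed as endothelial and none of the 132 red blood cells of E11.5 held a C1qb UMI. The 63 did not hold every cell with Cdh5. Cells with 13, 15 and 15 Cdh5 UMIs, kept out of the members, held 2, 4 and 18 C1qb UMIs, and another with 13 Cdh5 UMIs held 0. C1qb was thus found in every macrophage-like cell, and in 29 of the 9510 E11.5 cells outside the members.

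Csf1r, the receptor that macrophages need for survival, had 424 UMIs in 44 of 48 cells (628 UPM). Cx3cr1, the fractalkine receptor, had 588 UMIs in 45 cells. Spi1, encoding the myeloid regulator PU.1, had 234 UMIs in 43 cells, and 0 UMIs in the 9 megakaryocyte-like cells. Maf, a further regulator of macrophages, had 657 UMIs in 45 cells, at 37.4 times its level in other E11.5 cells.

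Most of the genes so counted on the lysosome, haem and iron, and lipid handling lists were higher. Apoe, the lipid carrier of tissue macrophages, had 8345 UMIs in 47 of 48 cells (12363 UPM, interval 12099 to 12631), against 47.2 UPM in other E11.5 cells, a log2 ratio of 8.03 (7.99 to 8.08). Its levels in the 41 deep cells ran from 20.9 to 416 UMIs per 10000, with a median of 110, so the group was uneven in this gene. Trem2, a receptor for lipids on microglia and other macrophages, had 297 UMIs in 43 cells. Of the lysosome and protease list, 14 of 15 genes were 2-fold or more higher. Its genes included Ctsb at 1415 UMIs, Lgmn at 881 and Ctsd at 660 UMIs. The haem and iron list was higher for 6 of 6 genes. Hmox1, which breaks down haem, had 449 UMIs in 32 cells, of which 1 cell held 272, and Slc40a1, the iron exporter, had 103 UMIs in 25 cells. Hmox1 varied from 0 to 78.9 UMIs per 10000 in the deep cells around a median of 1.52. Globin RNA, Hbb-y, was found in 21 of 48 cells at 45.9 UPM, beside 27 of 63 endothelial cells at 34.8 UPM. The intervals of these levels overlapped (31.2 to 65.2 and 25.3 to 46.7 UPM).

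Both microglial and tissue macrophage genes were present. Fcrls and P2ry12, known from microglia, had 549 UMIs in 44 cells and 80 UMIs in 34 cells, and Gpr34 had 88 UMIs in 31 cells against 1 UMI in the 9510 E11.5 cells outside the members. Siglech had 29 UMIs in 12 cells. Tmem119 and Sall1, also of mature microglia, had 8 and 1 UMIs, and Tmem119 was lower than in other cells (log2 ratio -2.13, -3.34 to -1.15), where 3957 cells held it. Mrc1, the mannose receptor of tissue and border macrophages, had 640 UMIs in 43 cells, Stab1 552 UMIs in 42 cells and F13a1 340 UMIs in 33 cells. Cd163, a scavenger receptor of mature tissue macrophages, had 1 UMI in 1 cell. Class II antigen presentation was near its limit, as H2-Aa had 0 UMIs (up to 5.46 UPM by the interval) and Cd74 12 UMIs, while the class I gene B2m had 564 UMIs in 46 cells. Of 8 monocyte markers 5 had UMIs, 379 in 41 of 48 cells, and of the 2 that would have reached 10 UMIs at the level of the other cells 0 were higher and 1 lower. The monocyte genes Ly6c2 and Chil3 were at 0 UMIs in every kept cell of both libraries.

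Of the chemokine list only 3 of 15 genes would have reached 10 UMIs at the level of the other cells, of which 1 was higher and 1 lower. Ccl24 was found in 32 of 48 cells and Ccl12 in 12 of 48. Ccl3 was found in 29 cells and Ccl4 in 11. Of the NADPH oxidase, Cyba had 764 UMIs and Cybb 101. The somite and mesenchyme list was lower for 14 of 14 genes and the neural list for 6 of 6. Of single genes, Igf2 had 4 UMIs, 73.3-fold lower than in other E11.5 cells, and Hmga2 6 UMIs, 72.0-fold lower. Igf1, which macrophages are known to secrete, was at 119 UMIs and a log2 ratio of -0.45 (-0.72 to -0.19), and 5044 other cells held it.

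Signalling and cytoskeletal genes of blood cells were also found. None of the 12 ITAM signalling genes compared would have reached 10 UMIs at the level of the other cells. Fyb, an adaptor of this list, had 265 UMIs in 41 cells. Of the haematopoietic actin regulators 6 of 6 genes were higher, led in level by Tmsb4x, which binds free actin, at 29688 UMIs in 48 of 48 cells (43981 UPM, 10.3 times the level in other E11.5 cells). Of lipid handling genes 4 of 5 were higher and 1 lower, and of myeloid transcription factors 3 of 4 were higher and 1 lower. The integrin and adhesion list had 1 of 4 higher, and innate sensing and interferon genes 1 of 3. Genes for the uptake of dying cells had 1 of 6 higher and 2 lower. Of the embryonic timing list 4 of 5 were lower. Erythroid genes were lower for 7 of 7, against other cells that include the red blood cells.

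Cell cycle genes were compared as lists and cell by cell. The S phase list had 0 of 16 genes past 2-fold and a median log2 ratio of -0.32, and the G2 and M phase list had 1 lower of 17, at -0.34, both close to the median of all genes. Thinned to 5000 UMIs a cell, 5 or more S phase UMIs were found in 23 of 41 macrophage-like cells (56.1%, interval 39.8 to 71.5%), and other E11.5 cells lay above this interval at 74.6%. For G2 and M phase genes the share was also 56.1%, against 58.3%. At full depth the S phase shares were 68.8% and 86.7%, and those of G2 and M phase 64.6% and 65.6%. In the thinned cells, Mki67 was found in 17 of 41 macrophage-like cells (41.5%, interval 26.3 to 57.9%) and in 39.4% of other E11.5 cells, with 7 and 709 shallower cells left out. Unthinned, 26 of 48 and 4909 of 9510 cells held Mki67.

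Pf4 was present in macrophage-like cells too. It had 698 UMIs in 38 of 48 cells (1034 UPM, interval 959 to 1114). Of all 4548 Pf4 UMIs at E11.5, the 3 megakaryocyte-like members held 2023. Endothelial cells held 64 UMIs in 2 of 63 cells, and red blood cells 0 of 132. Across the 41 deep macrophage-like cells Pf4 ran from 0 to 52.9 UMIs per 10000 (median 3.92), so 34 of 41 cells had it in very different amounts. Itga2b, Gp1bb and Rab27b had 0 UMIs in these cells, Gp9 1 UMI and Ppbp 2.

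**Figure D2:**
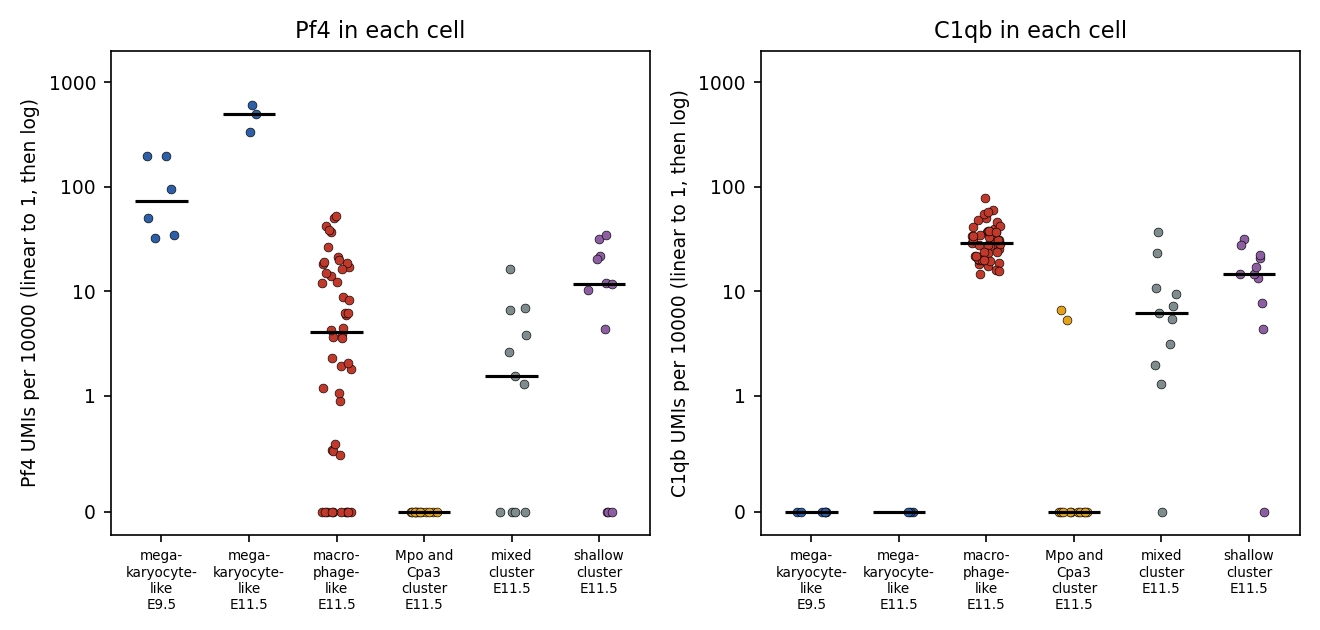
Points are single cells and bars the median of each group, in UMIs per 10000 of Pf4 (left) and C1qb (right), linear below 1 and logarithmic above. Pf4 was 0 in all 12 cells of the Mpo and Cpa3 group and highest in the 3 megakaryocyte-like cells of E11.5, and C1qb was 0 in all 9 megakaryocyte-like cells.

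At a finer setting (resolution 1.0) the macrophage-like cells divided into a Lyve1 group (27 cells, 21 of them of 5000 UMIs or more) and a second group (20 cells, 19 deep), with 1 cell joining neither. The deep cells were compared, a comparison added after the groups were seen, and the ratios are a description, since the groups were made from the same cells. Cell cycle genes were left out of the clustering, but the other genes below were not. The Lyve1 group was deeper, with a median of 18896 UMIs a cell against 12318 and a total of 392979 against 264639. The UMIs and cell counts below are not adjusted for this, while the ratios are of levels per total UMIs. Of 3045 genes compared, 6.4% were 2-fold or more higher in the Lyve1 group and 1.9% lower. Lyve1, a hyaluronan receptor of vessel-associated macrophages, had 61 UMIs in 11 of 21 cells against 1 UMI in 1 of 19 (log2 ratio 5.36, 2.83 to 10.69). Pf4 had 522 against 168 UMIs (1.07, 0.81 to 1.32) and Mrc1 457 against 173 (0.83, 0.58 to 1.09). The G2 and M phase list was higher in the Lyve1 group for 9 of 15 genes compared, with Mki67 at 142 against 32 UMIs. Conversely, Trem2 had 117 against 162 UMIs (-1.04, -1.40 to -0.69) and Apoe 3421 against 4465 (-0.95, -1.02 to -0.89). The immediate early genes Fos and Atf3, which answer stress and also dissociation, were at 72 against 189 and 8 against 37 UMIs, and the part of dissociation was not tested. The Csf1r and Cx3cr1 ratios were -0.15 (-0.44 to 0.15) and -0.14 (-0.38 to 0.11), and Fcrls was at -0.09 (-0.35 to 0.17). Single cells carried part of these ratios, as an alternative without the cell that held most UMIs of each gene showed. Hmox1 had 371 against 78 UMIs (1.68, 1.32 to 2.05), of which 1 cell of the Lyve1 group held 272, and was at -0.09 (-0.54 to 0.35) without it. Mt1, a metallothionein, had 244 against 540 UMIs (-1.72, -1.94 to -1.50), of which 1 cell of the second group held 367, and was at -0.17 (-0.46 to 0.12) without it. The ratios of Lyve1, Fos and Atf3 became 4.77, -1.32 and -1.88, and that of Cx3cr1 -0.28 (-0.54 to -0.03), an interval that no longer held 0.

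**Figure D3:**
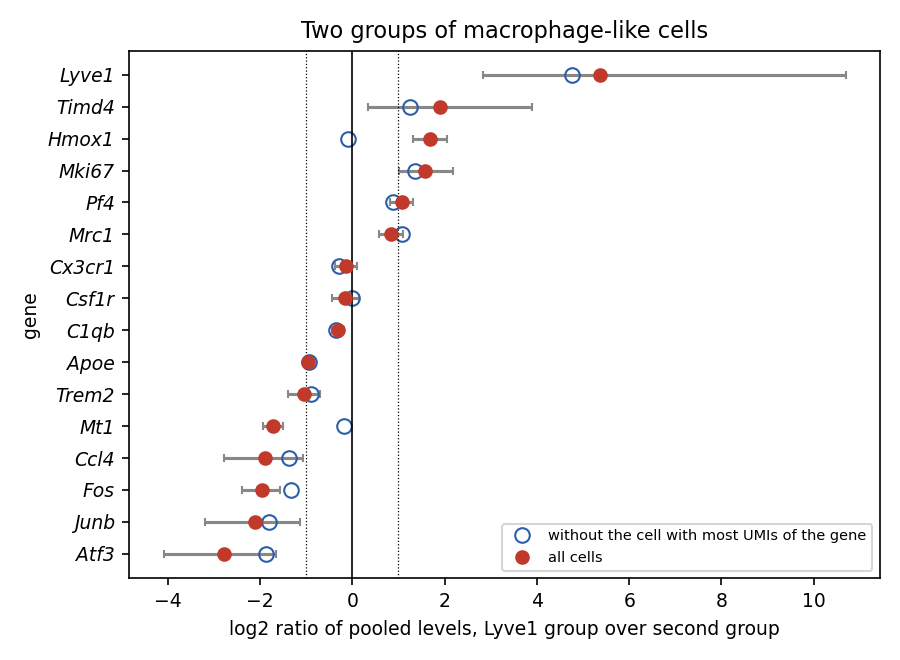
Filled points are log2 ratios of pooled levels of the deep cells, Lyve1 group (21 cells) over second group (19 cells), bars are 95% exact intervals of counting error, and open points leave out the cell with most UMIs of the gene. Lyve1 and the cycling gene Mki67 lie right of 2-fold (dotted lines) and Fos and Atf3 left of it with and without that cell, while Hmox1 and Mt1 fall to near 0 without it.

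All members of E9.5 were megakaryocyte-like. They held no UMI of Tyrobp or of the pan-leukocyte gene Ptprc, so they were white blood cells by the rule only. The 6 cells, of 7947, 9576, 10057, 13075, 20908 and 25213 UMIs, held 157, 31, 50, 259, 198 and 87 UMIs of Pf4. These 782 UMIs were 9012 UPM (interval 8391 to 9666), and the other 9845 cells of E9.5 held 79 Pf4 UMIs in 21 cells. The member with the least Pf4 thus held 31 UMIs, and the members together held 782 of the 861 Pf4 UMIs of the library's kept cells. Of 1836 genes compared with the other E9.5 cells, 20.5% were 2-fold or more higher and 15.7% lower. The 15 megakaryocyte and platelet markers compared, a list that also named the group, and the 12 platelet granule and coagulation genes compared would none have reached 10 UMIs at the level of the other E9.5 cells, so they are given by their values. Of the 16 macrophage markers Lyz2 alone had UMIs, 4 in 2 of the 6 cells. Over all deposited E9.5 barcodes, 8 macrophage genes (C1qa, C1qb, C1qc, Csf1r, Cx3cr1, Adgre1, Aif1 and Fcgr1) together had 9 UMIs, with at most 1 in a barcode, so no macrophage was detected at this depth.

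The platelet adhesion receptors were present together. Gp9, the 27 UMIs of which fell in 6 of 6 cells, Gp1bb (67 UMIs in 6 of 6) and Gp5 (22 UMIs in 6 of 6) encode parts of the receptor for von Willebrand factor. Itga2b, which encodes the platelet integrin subunit CD41, had 4, 11, 5, 12, 5 and 16 UMIs in the 6 cells. Rab27b, a GTPase of platelet granules, had 12, 6, 8, 16, 20 and 26 UMIs. The receptor Clec1b was also found in 228 of 293 endothelial cells of E9.5, and so is not particular to these cells. Ppbp, a platelet chemokine beside Pf4 on chromosome 5, had 9 UMIs in 1 cell, 4 in another and 0 in 4.

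Regulators of the megakaryocyte line were found. Each of the 8 megakaryocyte and erythroid transcription factors compared passed the limit of 10 UMIs only through these cells. Gata1 had 10 UMIs in 5 cells, Zfpm1, its partner, 28 UMIs in 6 cells, Gfi1b 23 in 6, Fli1 40 in 6, and Runx1 24 in 5. The erythroid factor Klf1 had 0 UMIs in the 6 cells. Endothelial genes were also found, with 36 UMIs from 5 of 13 genes, Kdr highest. They were at 415 UPM, beside 210 UPM in other E9.5 cells and 3864 UPM in endothelial cells of E9.5. Those endothelial cells were chosen by Cdh5, Kdr, Tie1 and Pecam1 and the members by a lack of Cdh5, so these levels are a description. Globin Hbb-bh1 was at 33 UMIs in 3 of 6 cells, and the cell of 7947 UMIs held 39 UMIs of the erythroid list. B2m had 3 UMIs (34.6 UPM), beside 33.5 UPM in other E9.5 cells. G2 and M phase genes held 8 to 170 UMIs a cell, highest at 135 and 170 in the 2 deepest cells, of 20908 and 25213 UMIs. Of 1371 genes that would have reached 10 UMIs at the level of the other E9.5 cells, 4.16% were 2-fold or more higher and 21% lower. Among them the S phase list had 0 of 12 genes higher and 6 lower, and the G2 and M phase list 0 of 10 past 2-fold either way. Thinned to 5000 UMIs, 4 of 6 members held 5 or more S phase UMIs (66.7%, interval 22.3 to 95.7%) and 6 of 6 as many of G2 and M phase, against 97.0% and 94.6% of other E9.5 cells. At full depth 66.7% and 97.1% held 5 or more S phase UMIs.

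The 3 megakaryocyte-like cells of E11.5, of 1003, 6437 and 49197 UMIs, held 61, 318 and 1644 Pf4 UMIs, together 35719 UPM (interval 34179 to 37310). Per 10000 UMIs, Pf4 was at 608, 494 and 334 in these cells and at 198 in the highest E9.5 cell, so the stages did not overlap in these 9 cells. They did overlap once barcodes outside the rule were counted, since 2 shallow E11.5 barcodes with 9 or more megakaryocyte genes held Pf4 at 128 and 88.8 per 10000. Ppbp had 6, 61 and 132 UMIs, together 3514 UPM against 150 UPM at E9.5. Of 1335 genes compared with other E11.5 cells, 27.8% were 2-fold or more higher and 20.4% lower. The 18 megakaryocyte and platelet markers among them, which named the group, reached 10 UMIs only through these 3 cells. Cell cycle genes were at 0 UMIs in the cells of 1003 and 6437 UMIs and at 38 (S phase) and 99 (G2 and M) in the third. With 6 and 3 cells of 1 library each, no stage ratio was computed. Levels in 1 cell of 49197 UMIs made up most of the E11.5 total.

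The megakaryocyte-like cells of both stages were set against the macrophage-like cells, and for 6 of the 9 cells stage and class cannot be told apart. Of 3715 genes with 30 UMIs or more, 12.9% were 2-fold or more higher and 21.2% lower. Pf4 was 18.9-fold higher over both stages (log2 ratio 4.24, 4.12 to 4.36). It was 8.72-fold higher with the 6 cells of E9.5 alone, 34.5-fold with the 3 of E11.5 and 11.9-fold without the cell of 49197 UMIs. Ppbp was 499-fold higher on only 2 macrophage UMIs (log2 ratio 8.96, 7.09 to 12.02), 50.6-fold with the cells of E9.5, 1186-fold with those of E11.5 and 287-fold without the cell that held most of it. Itga2b had 119 UMIs against 0. With the 0 set to 3 counts it was 187-fold higher (log2 ratio 7.54), and the exact interval ran from 7.22 upward. C1qb had 0 UMIs against 2025 and was 143-fold lower with the 0 set to 3 counts (-7.16, exact interval from -6.86 downward). Set the same way it was at -6.44 with the cells of E9.5 alone and -5.82 with those of E11.5. Apoe was 177-fold lower (log2 ratio -7.47, -8.53 to -6.59), at -6.75 with the cells of E9.5 and -8.51 without the cell that held most of it. With the cells of E11.5, at 0 Apoe UMIs, it was at -7.87 by the same setting. Among lysosome genes Ctsb had 2 UMIs against 1415 and Lgmn 1 against 881. Other genes were found in both. Fcer1g and Coro1a belong to the rule, and with Tyrobp and Ptprc at 0 UMIs in the 9 cells they alone could make these cells members, so their presence is no finding. Fcer1g, the adaptor of platelet glycoprotein VI and of macrophage Fc receptors, was 3.18-fold lower (-1.67, -1.97 to -1.38), and Coro1a -0.92 (-1.29 to -0.57). Fyb and Lcp2, adaptors below ITAM receptors, were at -0.26 (-0.74 to 0.19) and 0.72 (-0.05 to 1.44), intervals that hold 0. Fyb was at -0.92 (-1.70 to -0.23) with the cells of E9.5 and 0.38 (-0.22 to 0.94) with those of E11.5. Lcp2 was at 0.30 (-0.82 to 1.28) and 1.18 (0.16 to 2.09). Without the cell with most UMIs of the gene, Fyb was at -0.62 (-1.29 to -0.02) and Lcp2 at 0.56 (-0.42 to 1.44). A difference between stages was not tested. Syk was higher at 1.97 (1.15 to 2.79), Fermt3, which activates integrins, at 2.55 (2.20 to 2.89), and Fli1 at 2.05 (1.51 to 2.58). With the cells of E9.5 and of E11.5 alone Syk was at 1.96 and 1.99, Fermt3 at 1.90 and 3.18, Fli1 at 2.26 and 1.64, and Coro1a at -1.88 and -0.12.

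**Figure D4:**
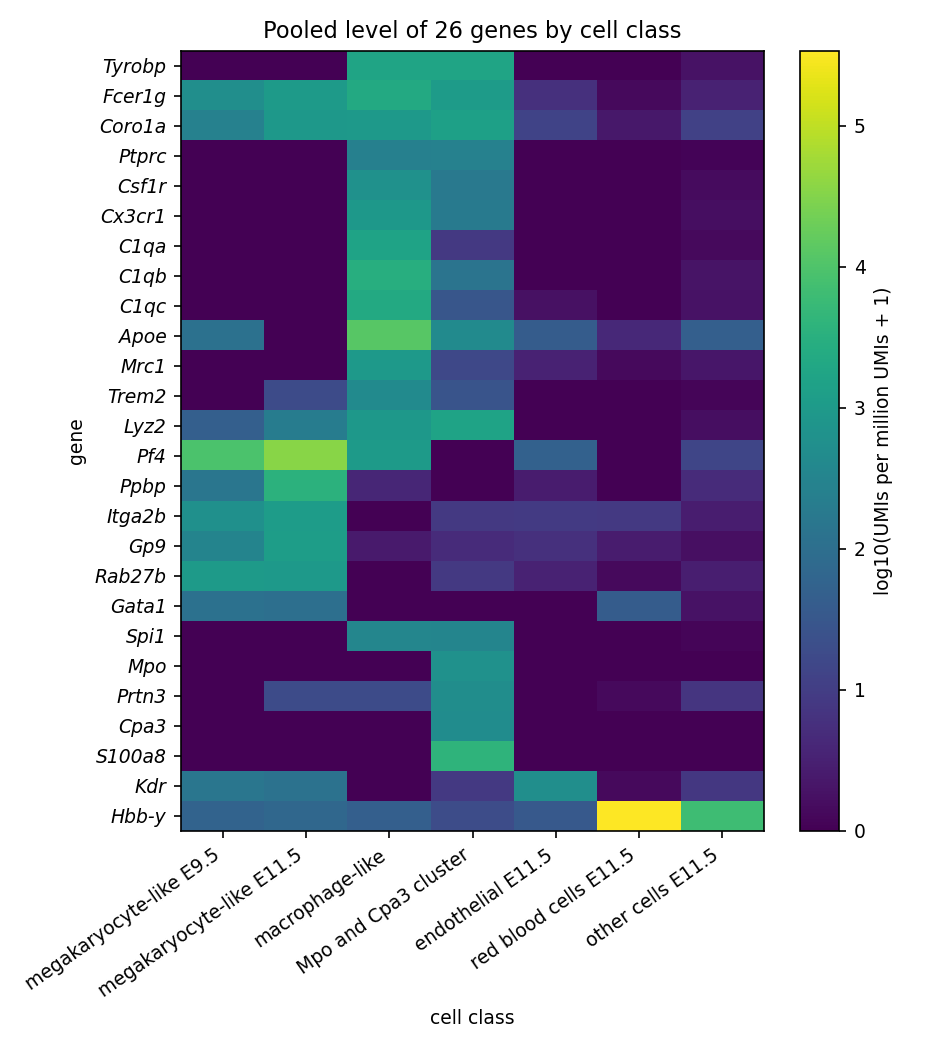
Rows are 26 genes and columns are cell groups, and colour gives the pooled level as log10 of UMIs per 1000000 UMIs plus 1. C1q genes and Apoe are highest in the macrophage-like column, Tyrobp is high there and in the Mpo and Cpa3 column, Pf4, Itga2b and Gp9 are highest in the megakaryocyte-like columns, and Fcer1g and Coro1a are high in all of these.

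The 12 cells of the Mpo and Cpa3 group held 9114 to 36357 UMIs and Tyrobp in 12 of 12. Its cells differed in which genes they held, and the group was given no common name. A cell of 9114 UMIs held 1038 UMIs of S100a8, 1198 of S100a9, 276 of Ngp, 86 of Camp and 63 of Ltf, which encode granule and calcium-binding proteins of neutrophils. The other E11.5 cells held 3 S100a8 UMIs, so 1038 of the 1041 S100a8 UMIs of the library sat in 1 cell. Another 4 cells, of 12991 to 19978 UMIs, held 9, 11, 30 and 78 UMIs of Cpa3, the carboxypeptidase of mast cell and basophil granules, and 20, 6, 20 and 17 of Gata2. Of these, 3 held 20, 25 and 11 UMIs of the histamine enzyme Hdc, 6, 3 and 9 of the IgE receptor subunit gene Ms4a2, and 21, 20 and 33 of Mpo, which encodes a granule protein of early granulocyte precursors. The fourth, with no UMI of Hdc, Ms4a2 or Mpo, held all 19 Cd3g UMIs of the group. Cpa3 was at 0 UMIs in the 9510 E11.5 cells outside the members.

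The other 7 cells of the group had no Cpa3. Mpo had 58 UMIs in a cell of 27839 UMIs, 27 in one of 29558 and 0 to 3 in the other 5, so high Mpo occurred with and without Cpa3. Prtn3, of the same granules, had 66 and 24 UMIs in the first pair and 2 to 13 in the 5, against 0 to 10 in the Cpa3 cells. Elane and Ctsg, of the same granules, had 0 UMIs in all 12. Plac8 had 420 UMIs in 12 of 12 cells, the chemokine receptor Ccr2 59 in 9, Irf8 59 in 6 and the progenitor gene Cd34 56 in 9, while Ly6c2 had 0 UMIs. C1qb was present in 2 of the 12 cells, with 12 and 24 UMIs, and Pf4 in none (up to 13.8 UPM). Ifitm1, an interferon-induced membrane protein gene, had 1299 UMIs in 7 of the 12 cells (4860 UPM), beside 4 UMIs in the 48 macrophage-like cells.

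**Figure D5:**
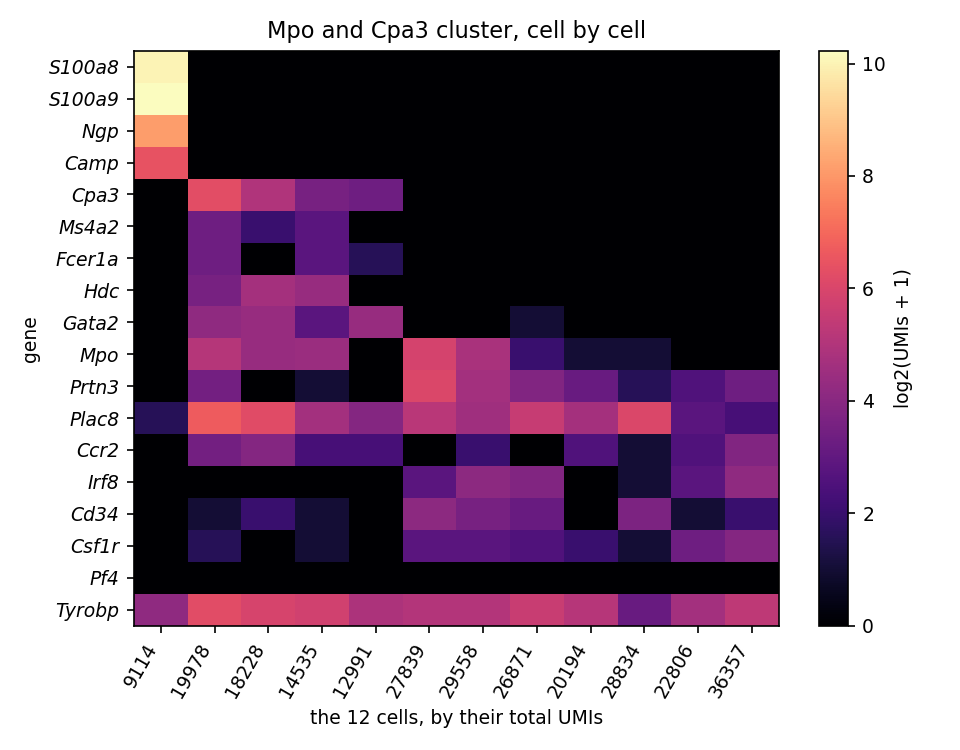
Columns are the 12 cells of the Mpo and Cpa3 group by total UMIs, rows are 18 genes, and colour is log2 of UMIs plus 1. S100a8 and S100a9 occur in the cell of 9114 UMIs, Cpa3 in 4 cells, and Pf4 is 0 in all 12 cells.

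Some members went against their label. Of the 11 mixed cells, one of 25705 UMIs held no macrophage marker UMI, and it held 171 Stmn2 and 108 Tubb3 UMIs, 8 of Coro1a and 1 of Fcer1g, so it met the rule as a neuronal cell. Another of 20997 UMIs held 43 Stmn2 UMIs with 139 macrophage marker UMIs, and 7 held 18 to 50 UMIs of somite and mesenchyme genes beside 7 to 285 macrophage marker UMIs. Xist and Y-linked UMIs occurred together in 3 of the 11 mixed cells and in 1 of 12 Mpo and Cpa3 cells. They also did so in 1 of 3 megakaryocyte-like cells of E11.5, the one of 49197 UMIs, with 1 UMI of each. This held for 0 of 48 macrophage-like cells, 0 of 11 shallow cells and 3.54% of other E11.5 cells. Whether the mixed barcodes, or others with both, held 2 cells was not tested, as the doublet caller made 0 calls in the E11.5 library. The 11 shallow cells held C1qb in 10 and Apoe in 11, and their markers had 2 to 100 macrophage UMIs a cell. Of the 18 E11.5 members under 3000 UMIs (21.2% of them, against 5.22% of kept E11.5 cells), 12 had under 1% mitochondrial UMIs. Among all 501 kept E11.5 cells under 3000 UMIs, 271 did. Without the mixed cells the E11.5 count was 74.

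The rule also left cells out. At E11.5, 8 cells failed only through Cdh5 (5) or Meox1 (3). A cell of 37079 UMIs with 1039 Pf4 and 50 Itga2b UMIs was kept out by 2 Meox1 UMIs, and one of 33808 UMIs with 59 C1qb and 29 Csf1r UMIs by 1 Cdh5 UMI. The first would have raised the megakaryocyte-like cells of E11.5 from 3 to 4.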

How the data were processed

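The deposited matrices hold UMI counts per gene and cell barcode, made by the authors from 10x Genomics libraries with Cell Ranger 3.0.1 on mm10 (27998 genes). Raw counts were used. Cells with 200 or more and under 6500 genes and under 15% mitochondrial UMIs were kept. The members and gene lists were chosen with earlier results of these data known. UMIs were summed per group and divided by the group's total, with 95% exact intervals (a 0 was set to 3 counts for a ratio). With 1 library per stage no test was made. Genes named were those of the 37 lists, the 15 highest over other cells with 50 UMIs or more, the 10 leading genes of each group and the 10 highest and lowest of macrophage-like against megakaryocyte-like cells, without mitochondrial, globin and sex-linked genes in rankings; the genes named between both groups of macrophage-like cells, and single cells described, were chosen after their values were seen. Members were clustered with scanpy 1.11.5 (normalized to 10000 UMIs, log, 1000 variable genes, 15 components, 10 neighbours, Leiden resolution 0.5, finer 1.0). Groups were named only from the macrophage or the megakaryocyte and platelet markers, above 5000 UPM, unless their median lay more than 3-fold under the E11.5 median UMIs, limits set after the levels were seen. Scrublet called 5.61% of kept E9.5 cells and 0 of 9595 at E11.5, so it was not used at E11.5. The macrophage comparison between stages could not be made, as E9.5 held 0 macrophage-like cells.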

Additional observations from a re-analysis of the deposited data

How the results depend on the processing

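No paired analysis was possible because each stage is 1 library with no replicate numbers. With 1 library per stage, pooled embryos and 6 and 85 members, values describe these libraries and depth limits genes of few UMIs. Requiring 3 of the 4 genes left 0% of E9.5 cells as members (0 cells), since Tyrobp and Ptprc had 0 UMIs in the 6 members of that stage. The macrophage-like share of E11.5 members was 92.9% with classes by marker UMIs, 97.4% with a sum of at least 6 and 97.1% with at least 1000 genes per cell, against 56.5%. The first classed each cell by its own markers, with no clustering. In the others every E11.5 member was macrophage-like or megakaryocyte-like, and the cause was not tested. Counting any kept barcode with 9 or more megakaryocyte genes, an alternative chosen after seeing the data, gave 0.125% of E11.5 cells (12 cells) in place of 0.0313% (3 cells). The other 46 alternative values of the stage shares, the class shares and the counts of genes past 2-fold stayed within the interval, or within 1.5 times, of the main value. Among single-gene ratios and shares 72 stayed and 30 moved. Of these Fyb, in the comparison of megakaryocyte-like with macrophage-like cells, went from -0.26 to 0.38 with the E11.5 cells alone, and apart from them Hmox1 between both groups of macrophage-like cells turned from 1.68 to -0.09 without the cell that held most of its UMIs, both alternatives chosen after seeing the data. Removing Scrublet calls was not run at E11.5, where the caller made 0 calls.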

Other observations

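Outside the rule, 9 kept barcodes of E11.5 held 9 or more of the 20 megakaryocyte and platelet genes. They are among the 9510 other E11.5 cells used as reference, which together held 1718 Pf4 UMIs, so the ratios to that reference are set against it with these cells included. They were 7 shallow barcodes of 587 to 1997 UMIs with 8 to 164 Pf4 UMIs (88.8 to 890 per 10000, which overlaps the 32.4 to 198 of the E9.5 members), the cell of 37079 UMIs with 1039 Pf4 UMIs, and a cell of 31292 UMIs with 60 Pf4, 27 Cdh5 and 22 Kdr UMIs. At E9.5 there was 1 such barcode, of 9746 UMIs with 59 Pf4 UMIs.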
